A study of Mus musculus with 6 samples.

Results

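Transcripts of 10 genes of the tumour necrosis factor (TNF) system were followed in whole mouse kidneys: the ligands Tnf, Tnfsf10 and Tnfsf12, and the receptors Tnfrsf1a, Tnfrsf1b, Tnfrsf10b, Tnfrsf11b, Tnfrsf12a, Tnfrsf21 and Fas. They were chosen by symbol, because circulating TNF receptors mark the progression of diabetic kidney disease (DKD), and all 10 were found among the 55401 gene IDs of the count table. These genes and the other gene lists below were chosen with earlier results of these data known. Counts of a list set beside all genes are therefore descriptive and not a test of the list. The study compared 3 control kidneys with 3 kidneys of mice with DKD by sequencing of poly(A)-selected, strand-marked RNA libraries. The labels give the group and replicate number of each library under a genotype heading, with no allele, strain, age, sex, way of inducing diabetes or drug, so what the groups share beyond the tissue is not known here. Nothing in the labels says that each library is a separate animal, so the p-values below cover the spread of these 6 libraries alone, some of which may be technical.

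TNF ligands are made as trimers on the cell surface and can be cut free by proteases. Their receptors gather into clusters on binding and recruit adaptor proteins, the TRAFs and the death domain proteins TRADD and FADD. From there the signal runs to NF-kappaB and MAP kinases or to caspase-8 and cell death. In diabetic kidney disease the receptors TNFR1 and TNFR2, encoded by Tnfrsf1a and Tnfrsf1b, are best known as shed proteins in blood that track the loss of kidney function. A whole-kidney library shows transcripts and neither shed proteins nor the cells that made them.

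One library stood apart by its hepatocyte markers. Library totals ran from 64816622 to 77417638 counts. The 8 kidney markers used to check the tissue (Umod, Slc34a1 and Lrp2 among them) were present in all 6 libraries, summing to 31200 to 38870 CPM in control and 16790 to 34460 CPM in DKD kidneys. CPM are counts scaled to a common library size, corrected by TMM factors, which allow for differences in library composition. The 10 hepatocyte markers summed to 3801 CPM in DKD replicate 1, against 142 to 395 CPM in the other 5 libraries. Ahsg, a plasma protein gene of the liver and a hepatocyte marker, reached 376 CPM in DKD replicate 1 and had 0 counts in every other library. Results are therefore given with all 6 libraries and, where that matters, without DKD replicate 1. The marker lists were chosen with earlier results known, so this is not a quality rule set in advance. Of the fits that leave out 1 library, this one also called the most genes, 3101. The part of the hepatocyte RNA in any result was not tested.

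Per kilobase of exon, the 10 genes spanned over 3 orders of magnitude in the control kidneys. Tnfrsf21, which encodes the orphan death receptor DR6, was the most abundant at 109 ± 33.6 CPM per kilobase (SD, n = 3). Tnfrsf1a followed at 18.1 ± 1.85 and Tnfsf10, the gene of the ligand TRAIL, at 12.3 ± 1.48. Tnfrsf12a, which encodes the TWEAK receptor Fn14, stood at 6.41 ± 1.26 CPM per kilobase. Tnfsf12, the gene of TWEAK itself, and Fas, the receptor of Fas ligand, stood at 3.71 ± 2.02 and 3.63 ± 0.924. Tnfrsf1b was at 0.908 ± 0.279. Tnfrsf10b (the TRAIL receptor DR5) was at 0.327 ± 0.125, Tnfrsf11b (osteoprotegerin, a secreted decoy) at 0.177 ± 0.0806, and Tnf at 0.0689 ± 0.119 CPM per kilobase. Control ranges of neighbours in this order overlapped between Tnfrsf12a, Tnfsf12 and Fas, and between Tnfrsf10b, Tnfrsf11b and Tnf, and were separate at the other steps. In DKD the first 8 places kept this order, and Tnf (0.215 ± 0.130) and Tnfrsf11b (0.167 ± 0.0446) changed places with overlapping ranges. Exon lengths are those of another annotation (GENCODE M21), so the order is approximate where neighbours lie close.

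**Figure D1:**
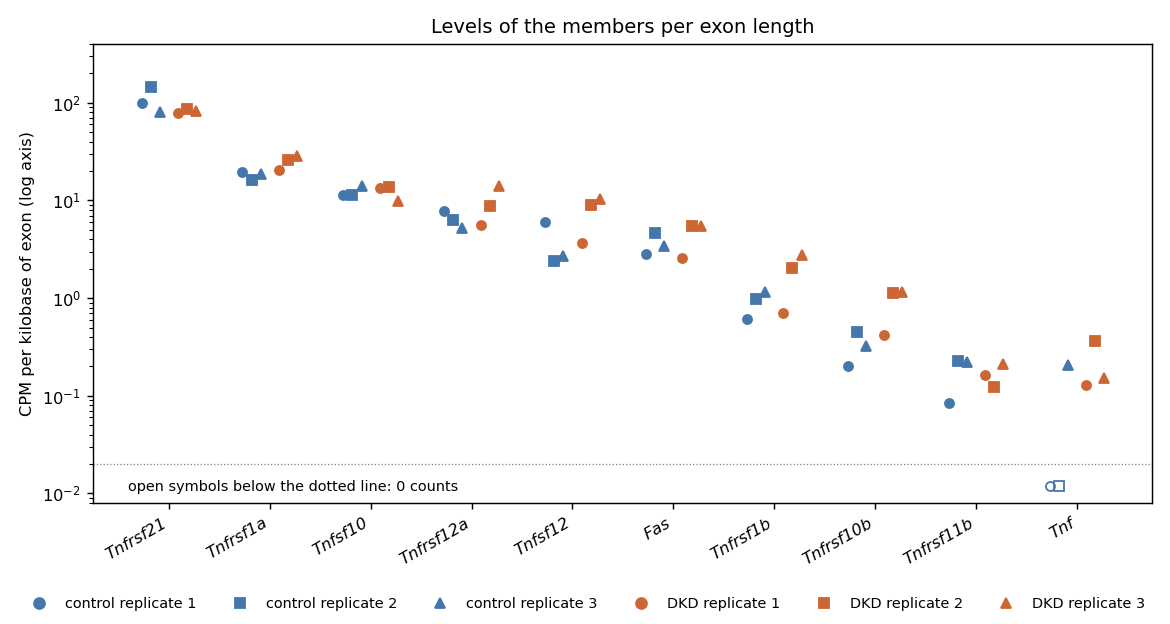
Level of each of the 10 genes in CPM per kilobase of exon (vertical log axis), 1 symbol per library, blue for control and orange for DKD, ordered by the control mean. Tnfrsf21 lies highest, and Tnf lies lowest in control, with 2 control libraries at 0 counts (open symbols).

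With all 6 libraries, no member passed the test between DKD and control. The quasi-likelihood test of edgeR called 0 of the 10 members and 0 of all 19197 genes tested at an adjusted p of 0.05 (0% called). At an unadjusted p under 0.05 there were 2 members, Tnfrsf1a and Tnfrsf10b, both higher in DKD, where 12.2% of all genes were higher at that p and 7.05% lower. Fitted levels were higher in DKD for 8 members and lower for 2, with a median log2 difference of 0.52. Of all genes, 52.4% were higher and the median was 0.02. Tnf is among the 8, with 0 counts in 2 of 3 controls. It passed the low-count filter only through its DKD libraries, which favours a higher fitted level. Tnf also enters this median and the mean member levels below. CPM values did not overlap between the groups for 1 member, Tnfrsf1a, higher in DKD, as for 13.8% of all genes; a further 11.5% were lower without overlap. In DKD replicate 1, 7 members lay inside the range of the controls, 1 above it and 2 below it. In DKD replicates 2 and 3, 6 members lay above every control in both libraries (Tnfrsf1a, Tnfrsf1b, Tnfrsf10b, Tnfrsf12a, Tnfsf12 and Fas), as did 27.4% of all genes.

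The call depended on the library and the tool. Without DKD replicate 1, edgeR called 3 members higher over all genes, Tnfrsf1a, Tnfrsf1b and Tnfrsf10b, and none lower, where 9.67% of all genes were called higher and 5.84% lower. DESeq2 on all libraries called 1, Tnfrsf10b (4.03% of the 29725 genes it tested were called higher and 1.29% lower). Of the 19197 genes of the edgeR test, DESeq2 called 1157 higher and 377 lower. Limma-voom with sample quality weights called 3, Tnfrsf1a, Tnfrsf10b and Tnfsf12 (11.5% of all genes were called higher and 9.06% lower). Limma-voom without weights called 0 members and 0 genes (0%). All of these fits reuse the same libraries.

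**Figure D2:**
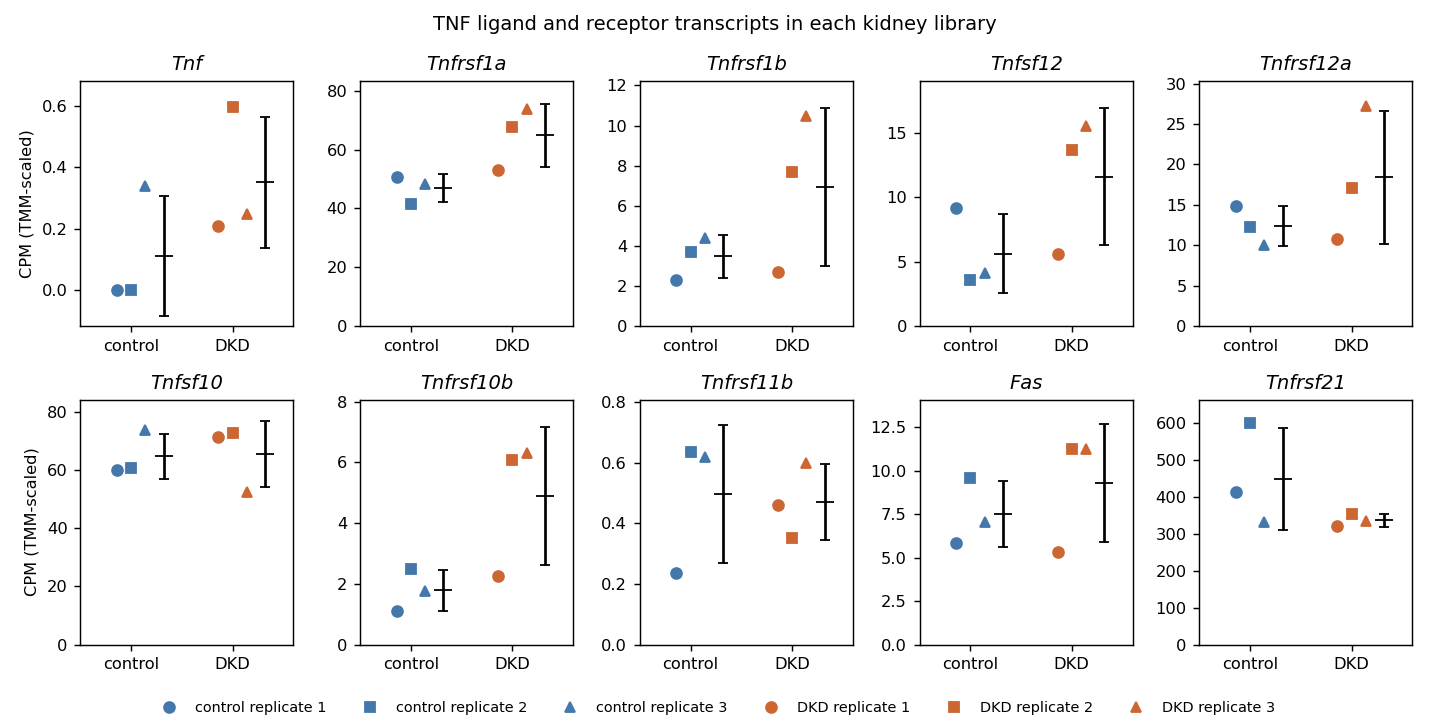
CPM of each of the 10 genes in every library (vertical axis from 0, or just below it for Tnf), with the replicate number given by the symbol and the mean ± SD of each group in black. For Tnfrsf1b, Tnfrsf10b, Tnfsf12 and Tnfrsf12a the orange circle of DKD replicate 1 lies among the controls, for Fas it lies below them, and for all 5 genes the other DKD libraries lie above every control.

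Tnf itself was barely detected. Its deposited counts were 0, 0 and 24 in control and 16, 46 and 21 in DKD replicates 1 to 3, which is 0, 0 and 0.339 CPM against 0.210, 0.597 and 0.247 CPM. The transcript was thus found in each DKD library and in 1 of 3 control libraries, and that control lay between the DKD values. A library with 0 counts could still hold up to 3, which is 0.0455 to 0.0505 CPM in those 2 controls, for counting error only. That bound takes each count as 1 read, which need not hold for these deposited counts. The log2 difference of 1.59 ± 1.41 (SE; adjusted p = 0.562 with edgeR) lay within the spread between libraries.

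Tnfrsf1a encodes TNFR1, the broadly expressed receptor with a death domain. It was at 50.8, 41.6 and 48.5 CPM in control and at 53.1, 67.6 and 73.8 CPM in DKD replicates 1 to 3. Every DKD library lay above every control, DKD replicate 1 by little. The means were 47.0 ± 4.79 and 64.9 ± 10.6 CPM (SD, n = 3), a 1.38-fold difference and 0.47 ± 0.14 on the log2 scale (SE; adjusted p = 0.166 with edgeR). Without DKD replicate 1 the groups were 0.58 ± 0.12 apart (log2, SE; adjusted p = 0.0194 with edgeR).

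Tnfrsf1b encodes TNFR2, which lacks a death domain and is best known on immune and endothelial cells. It was at 2.31, 3.70 and 4.40 CPM in control and at 2.69, 7.70 and 10.5 CPM in DKD replicates 1 to 3. DKD replicate 1 lay between the controls, and the other DKD libraries were higher than all of them. With all libraries it differed by 1.00 ± 0.49 (log2, SE; adjusted p = 0.313 with edgeR), and by 1.38 ± 0.30 without DKD replicate 1 (adjusted p = 0.0242 with edgeR). Most macrophage markers were high in the same libraries. All 10 were detected everywhere and had a higher fitted level in DKD. In both DKD replicates 2 and 3, 9 of them lay above every control, as did 27.4% of all genes. So did 8 of 8 T and NK cell, 6 of 6 B and plasma cell and 5 of 6 stromal markers. Fewer did in the other lists: 3 of 6 endothelial, 2 of 8 kidney, 1 of 4 tested neutrophil and 1 of 8 tested hepatocyte markers. The 10 macrophage markers summed to 132 to 154 CPM in control and to 137, 243 and 303 CPM in DKD replicates 1 to 3. Among them Cd68, a lysosomal protein of macrophages, was at 2.23 to 2.32 CPM in control and at 3.10, 7.47 and 10.6 CPM in DKD. Csf1r, the receptor of a macrophage growth factor, was the exception at 74.1, 62.4 and 72.7 CPM in control and at 89.1, 58.2 and 66.3 CPM in DKD; it was singled out with its values known. More cells of a type and more RNA per cell cannot be told apart in whole tissue, and the part of the macrophage markers in the Tnfrsf1b values was not tested.

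TWEAK and its receptor Fn14 act as a pair in injured epithelium and stroma. Tnfsf12 was at 9.14, 3.61 and 4.13 CPM in control and at 5.57, 13.7 and 15.5 CPM in DKD replicates 1 to 3. Control replicate 1 was higher than the other controls and above DKD replicate 1, so the groups overlapped. The fitted difference was 1.04 ± 0.49 (log2, SE; adjusted p = 0.298 with edgeR). Weighted limma-voom gave 1.65 ± 0.32 (adjusted p = 0.0167). Without control replicate 1 edgeR also gave 1.58 ± 0.47 (adjusted p = 0.240), and without DKD replicate 1 it gave 1.37 ± 0.38 (adjusted p = 0.0542). In the annotation Tnfsf12 shares its locus and strand with Tnfsfm13, a read-through gene that joins Tnfsf12 to Tnfsf13, and reads of the shared part can be split between them. Tnfsfm13 was at 2.95, 1.61 and 2.09 CPM in control and at 1.71, 6.74 and 6.67 CPM in DKD. Together they were at 12.1, 5.21 and 6.22 CPM in control and at 7.28, 20.4 and 22.2 CPM in DKD replicates 1 to 3, so the same libraries were high and low. The antisense gene Tnfsf13os also overlaps there, and the strand setting of the counting is not given in the sources used here.

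Tnfrsf12a was at 14.9, 12.2 and 10.04 CPM in control and at 10.8, 17.1 and 27.2 CPM in DKD replicates 1 to 3. DKD replicate 3 was the highest library by a wide margin, and DKD replicate 1 lay inside the controls. It differed by 0.57 ± 0.33 (log2, SE; adjusted p = 0.381 with edgeR), by 0.83 ± 0.24 without DKD replicate 1 (adjusted p = 0.0577) and by 0.17 without DKD replicate 3. No fit that was run called it.

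TRAIL signals through DR5, and osteoprotegerin binds TRAIL and the bone ligand RANKL without signalling. Tnfsf10 was at 59.9, 60.5 and 73.6 CPM in control and at 71.4, 72.6 and 52.6 CPM in DKD replicates 1 to 3. The groups overlapped in full, with DKD replicate 3 lowest of all and control replicate 3 highest. The groups were 0.02 ± 0.15 apart (log2, SE; adjusted p = 0.956 with edgeR), and the sign turned on leaving out control replicate 1 or 2 or DKD replicate 1 or 2. Tnfrsf11b was low, at 0.236, 0.636 and 0.621 CPM in the controls against 0.460, 0.350 and 0.601 CPM in DKD. All its DKD values lay inside the controls (log2 difference -0.08 ± 0.52, SE; adjusted p = 0.944 with edgeR).

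Tnfrsf10b was at 1.11, 2.47 and 1.76 CPM in control and at 2.26, 6.09 and 6.32 CPM in DKD replicates 1 to 3. DKD replicate 1 lay just below the highest control, and the other DKD libraries were far above it. The means of 1.78 ± 0.680 and 4.89 ± 2.28 CPM (SD, n = 3) differed 2.74-fold. On the log2 scale that was 1.45 ± 0.47 (SE; adjusted p = 0.175 with edgeR), and it was 1.79 ± 0.33 without DKD replicate 1 (adjusted p = 0.015 with edgeR). DESeq2 gave an adjusted p of 0.0189 and weighted limma-voom 0.0208. It was the one member called by each of these 3 fits.

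Fas and Tnfrsf21 are the other death domain receptors of the set. Fas was at 5.84, 9.58 and 7.05 CPM in control and at 5.34, 11.2 and 11.2 CPM in DKD replicates 1 to 3. DKD replicate 1 was the lowest of all libraries and DKD replicates 2 and 3 were the highest. Fas differed by 0.31 ± 0.33 (log2, SE; adjusted p = 0.632 with edgeR) and by 0.58 ± 0.22 without DKD replicate 1 (adjusted p = 0.129). Tnfrsf21 was at 413, 600 and 331 CPM in control and at 320, 353 and 336 CPM in DKD. It was 1 of 2 members with a lower fitted level in DKD, beside Tnfrsf11b, and the DKD libraries lay close together at the low end of the controls. Its fitted difference was -0.41 ± 0.21 (log2, SE; adjusted p = 0.328 with edgeR), and -0.15 without control replicate 2, the highest library.

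**Figure D3:**
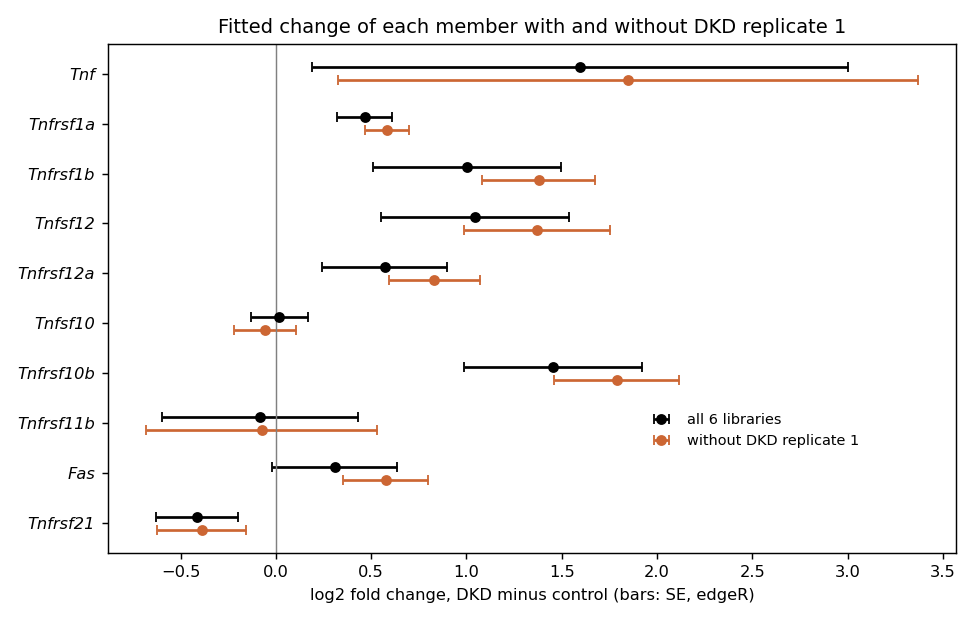
Log2 fold change of each gene, DKD minus control, from edgeR with all 6 libraries (black) and without DKD replicate 1 (orange), with bars of 1 SE. Tnfrsf10b stands at 1.45 and 1.79, Tnfrsf1a has the shortest bars of the genes above 0.4, and Tnf has the longest.

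Promoter sequences are shown for 4 members, to set the barely detected ligand gene beside receptors whose highest values fell in DKD replicates 2 and 3. RefSeq promoters (build GRCm38.p6, from 250 bases before the start site to 50 after it) were at hand for 7 members and not for Tnfrsf10b, Tnfrsf11b or Tnfsf12. Each line runs 5′ to 3′ on the gene's strand, from 220 to 21 bases before the start site, in a window free of annotated exons. Capitals mark matches, on either strand, to the GC box GGGCGG, the TATA box TATAAA or the AP-1 motif TGANTCA.
Tnf, chr17:35202028-35202227, minus strand: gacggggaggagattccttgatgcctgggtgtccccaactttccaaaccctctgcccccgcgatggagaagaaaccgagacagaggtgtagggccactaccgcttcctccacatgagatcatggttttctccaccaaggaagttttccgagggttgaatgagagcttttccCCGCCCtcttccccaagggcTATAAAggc
Tnfrsf1b, chr4:145246891-145247090, minus strand: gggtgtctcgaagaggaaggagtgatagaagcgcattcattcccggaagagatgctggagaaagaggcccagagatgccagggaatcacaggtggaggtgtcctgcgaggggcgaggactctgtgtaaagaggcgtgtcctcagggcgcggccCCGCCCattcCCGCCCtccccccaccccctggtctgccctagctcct
Tnfrsf12a, chr17:23677470-23677669, minus strand: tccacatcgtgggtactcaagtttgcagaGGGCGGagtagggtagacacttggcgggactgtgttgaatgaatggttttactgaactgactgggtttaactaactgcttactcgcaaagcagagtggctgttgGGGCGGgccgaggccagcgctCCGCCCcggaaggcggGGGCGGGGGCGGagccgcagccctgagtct
Fas, chr19:34290439-34290638, plus strand: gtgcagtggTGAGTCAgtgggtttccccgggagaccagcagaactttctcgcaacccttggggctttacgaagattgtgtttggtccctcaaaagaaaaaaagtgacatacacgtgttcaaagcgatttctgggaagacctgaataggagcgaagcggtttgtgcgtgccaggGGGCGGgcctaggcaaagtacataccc

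The Tnf window holds a TATA box near its 3′ end, and the 3 receptor windows hold none. Over the full 300 bases, the GC box was found in 5 of the 7 member promoters (Tnf, Tnfrsf1b, Tnfrsf12a, Tnfrsf21 and Fas) and in 35.7% of all 32851 promoters. Tnfrsf12a held 5 matches to it, the last 2 of them side by side. The TATA box was found in 1 member (Tnf) and in 13.6% of all promoters, and the AP-1 motif in 1 member (Fas) and in 7.81%. The CCAAT box, searched as CCAAT, was found in 1 member (Tnfsf10) and in 37.4%. The kappaB consensus and the p53 decamer were searched on both strands too and matched none of the 7, where 4.51% and 8.36% of all promoters had a match. Tnfrsf1a, also highest in DKD replicates 2 and 3, is not printed and had no match to any motif searched. Its window holds 6 annotated exon bases. A match is a string of letters and not a bound site, and a lack of one says only that these letters are not in this window.

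The other family genes that could be tested had higher fitted levels in DKD. Of 15 other ligands 10 were tested and all 10 had a higher fitted level (median log2 difference 0.97), and of 21 other receptors 17 were tested and all 17 were higher (median 1.09), where the median of all genes was 0.02. The 9 untested genes were too low for the filter, and Tnfsf4 and Cd70 had 0 counts in every library. Some tested genes passed the filter only through their DKD libraries, which favours a higher fitted level. An example is Fasl, with 16, 8 and 0 counts in control and 12, 15 and 25 in DKD. None of the tested genes passed the edgeR test with all libraries. At an unadjusted p under 0.05 there were 2 ligands and 4 receptors, all higher, where 12.2% of all genes were higher at that p and 7.05% lower. Groups did not overlap for 5 ligands and 4 receptors, all higher in DKD, against 13.8% of all genes. Without DKD replicate 1, edgeR called 2 of these ligands and 5 of these receptors higher and none lower over all genes (9.67% of all genes were called higher and 5.84% lower). The ligands were Ltb and Tnfsf13b, and the receptors were Cd40, Tnfrsf13b, Tnfrsf19, Tnfrsf23 and Eda2r. A further 2 genes, Cd40lg and Tnfrsf9, had 0 counts in every control and passed the filter only through the DKD libraries in that fit, so they are not counted. Tnfrsf23 is a close copy of Tnfrsf22 and Tnfrsf26, so its reads can be split between them.

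Among the ligands, Tnfsf15 was at 3.16, 1.44 and 2.24 CPM in control and at 3.63, 4.42 and 4.68 CPM in DKD replicates 1 to 3. It encodes TL1A, which acts on T cells through Tnfrsf25, and its groups did not overlap (log2 difference 0.90 ± 0.32, SE; adjusted p = 0.2 with edgeR). Ltb, one chain of the lymphotoxin trimer, was at 1.11, 1.32 and 1.71 CPM in control and at 1.20, 3.67 and 3.66 CPM in DKD. Its log2 difference of 1.04 ± 0.46 (SE; adjusted p = 0.268 with edgeR) became 1.40 ± 0.27 without DKD replicate 1 (adjusted p = 0.0172). Tnfsf14, the gene of LIGHT, differed by 1.604 ± 0.617 (log2, SE) from a control mean of 0.161 CPM (adjusted p = 0.225 with edgeR). Cd40lg, the T cell ligand of CD40, was too low to be tested, with 0 counts in each control and 4, 14 and 35 counts in DKD replicates 1 to 3.

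Among the 17 receptors tested, Eda2r and Tnfrsf19 had the largest fitted differences. Eda2r, the receptor of the ectodysplasin form EDA-A2, was at 0.202, 0.424 and 0.381 CPM in control and at 0.249, 12.2 and 11.4 CPM in DKD replicates 1 to 3. DKD replicate 1 lay inside the controls, while the other DKD libraries stood far above all of them. Eda2r differed by 4.55 ± 1.32 with all libraries (log2, SE; adjusted p = 0.165 with edgeR) and by 5.11 ± 0.31 without DKD replicate 1 (adjusted p = 0.000547). On all libraries DESeq2 called it (adjusted p = 0.00813) and limma-voom did not, with an adjusted p of 0.132 with quality weights and 0.527 without. Tnfrsf19, or TROY, an orphan receptor of epithelial progenitors, was at 0.320, 0.303 and 0.240 CPM in control and at 0.670, 2.57 and 5.47 CPM in DKD. Each DKD library lay above every control (log2 difference 3.33 ± 0.74, SE; adjusted p = 0.113 with edgeR; adjusted p = 0.00309 without DKD replicate 1). Cd40, the receptor of antigen-presenting cells, was at 0.757, 1.59 and 1.42 CPM in control and at 1.76, 2.88 and 3.65 CPM in DKD, with a log2 difference of 1.13 ± 0.40 (SE; adjusted p = 0.198 with edgeR). At the other end Ltbr, the lymphotoxin receptor, differed by 0.07 ± 0.11 (log2, SE) at a control mean of 60.8 CPM. It is named here after its values were seen.

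**Figure D4:**
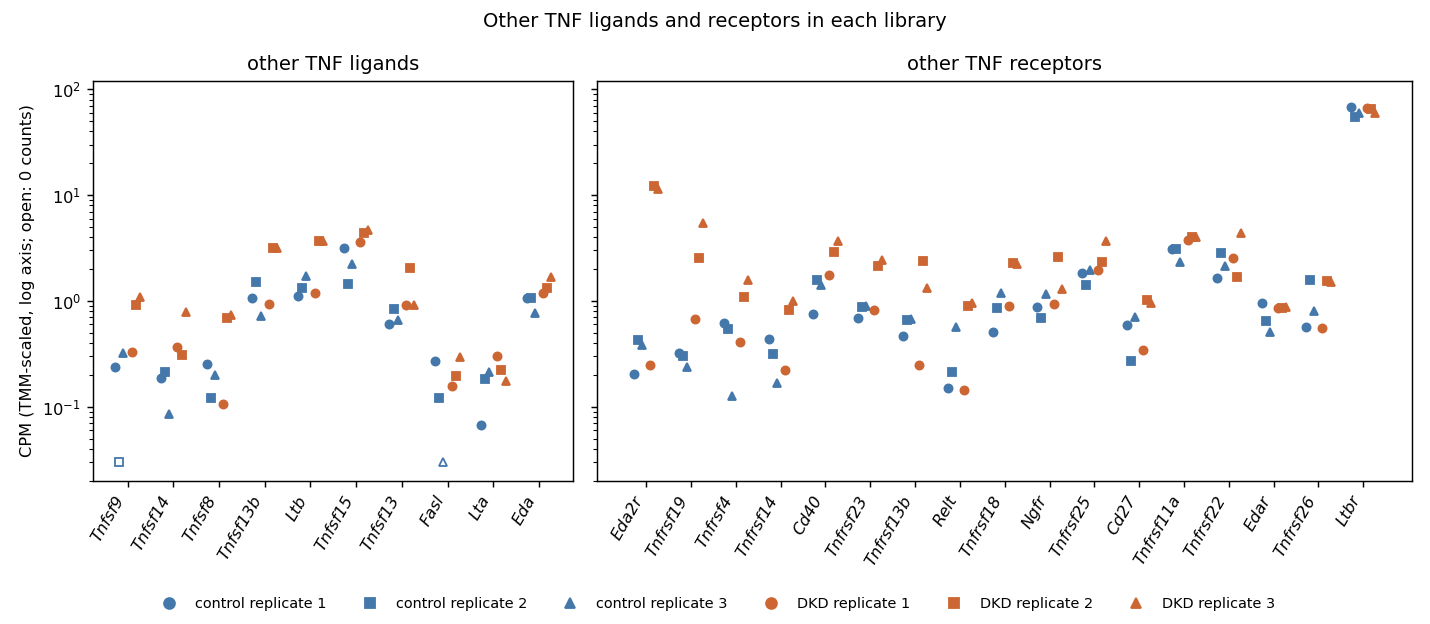
CPM (vertical log axis) of the 10 other ligands and 17 other receptors that were tested, 1 symbol per library, ordered within each panel by fitted change from left to right. Eda2r, at the left of the receptors, has DKD replicates 2 and 3 near 12 CPM and the other 4 libraries below 0.5 CPM.

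Genes that carry the signal from the receptors had fitted differences centred near 0. All 25 receptor-proximal signalling genes could be tested, and fitted levels in DKD were higher for 10 and lower for 15 (median log2 difference -0.04). EdgeR called none with all libraries. At an unadjusted p under 0.05, 3 of the 25 were higher and 2 lower, near the 12.2% and 7.05% of all genes. Without DKD replicate 1 it called 2 of the 25 higher, Traf1 and Birc3, and none lower, where 9.67% of all genes were called higher and 5.84% lower. Traf1, an adaptor that holds on to TRAF2 and the cIAP proteins, was at 1.67, 2.23 and 2.33 CPM in control and at 3.34, 7.53 and 7.79 CPM in DKD. Every DKD library was above every control (log2 difference 1.58 ± 0.36, SE; adjusted p = 0.114 with edgeR; adjusted p = 0.00381 without DKD replicate 1). Birc3, the ubiquitin ligase cIAP2, was at 5.23, 7.09 and 8.24 CPM in control and at 7.33, 18.2 and 15.6 CPM in DKD, with a log2 difference of 1.00 ± 0.35 (SE; adjusted p = 0.196 with edgeR; adjusted p = 0.0103 without DKD replicate 1). Cyld, a deubiquitinase that restrains NF-kappaB, had a lower fitted level, 57.7 ± 5.87 against 47.5 ± 1.04 CPM (SD, n = 3), with no overlap (log2 difference -0.28 ± 0.10, SE; adjusted p = 0.198 with edgeR).

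The 6 genes of TNF and receptor shedding had a median log2 difference of 0.09, with 4 fitted higher and 2 lower. EdgeR called 0 of them with all libraries. At an unadjusted p under 0.05 there were 0, where 12.2% of all genes were higher and 7.05% lower. Adam17, the protease that cuts TNF and its receptors free, had a mean of 32.02 ± 0.943 CPM in control against 30.0 ± 4.04 CPM in DKD (SD, n = 3) and is named here after its values were seen. Timp3, the inhibitor of that protease, was at 2335, 1913 and 2168 CPM in control and at 2128, 1359 and 1213 CPM in DKD replicates 1 to 3. Timp3 differed by -0.45 ± 0.225 (log2, SE; adjusted p = 0.318 with edgeR) and by -0.74 ± 0.12 without DKD replicate 1 (adjusted p = 0.0108). Rhbdf2, the iRhom2 protein that brings ADAM17 to the cell surface, differed by 0.43 ± 0.23 (SE; adjusted p = 0.354 with edgeR) and by 0.63 ± 0.16 without DKD replicate 1 (adjusted p = 0.0387). Without DKD replicate 1 edgeR thus called 1 of the 6 higher and 1 lower, where 9.67% of all genes were called higher and 5.84% lower. DESeq2 called 0 of the 6 (4.03% of the genes it tested were called higher and 1.29% lower). Weighted limma-voom called Timp3, lower in DKD (11.5% of all genes were called higher and 9.06% lower).

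Genes that TNF is known to induce mostly had higher fitted levels in DKD. The test covered 21 of the 24 genes listed, of which 18 were fitted higher and 3 lower (median log2 difference 0.84). Sele, with 15, 4 and 5 counts in control, passed the filter only through its DKD libraries, which favours a higher fitted level. EdgeR called none with all libraries (6 higher at an unadjusted p under 0.05, against 12.2% of all genes). Without DKD replicate 1 it called 13 higher and 1 lower, against 9.67% and 5.84% of all genes. DESeq2 called 5 higher. It called 4.03% of the 29725 genes it tested higher, and 1157 of the 19197 genes of the edgeR test. Weighted limma-voom called 11 higher and 2 lower (11.5% and 9.06% of all genes). Tnfaip8 was the gene called lower without DKD replicate 1, and Tnfaip8 and Sod2 were those called lower by weighted limma-voom. Their means were 399 and 326 CPM in control and 333 and 269 CPM in DKD. Both are named here after their values were seen. Tnfaip3, the feedback inhibitor A20, was at 4.68, 5.23 and 4.36 CPM in control and at 5.45, 9.98 and 9.58 CPM in DKD, with no overlap (log2 difference 0.81 ± 0.26, SE; adjusted p = 0.174 with edgeR; adjusted p = 0.0108 without DKD replicate 1). Cxcl10, a chemokine for T cells, was at 3.20, 6.51 and 6.98 CPM in control and at 7.13, 20.3 and 27.3 CPM in DKD (log2 difference 1.71 ± 0.53, SE; adjusted p = 0.170 with edgeR). Lcn2, the tubular injury protein NGAL, was at 1.06, 0.970 and 0.875 CPM in control and at 1.96, 15.4 and 43.2 CPM in DKD (log2 difference 4.38 ± 1.09, SE; adjusted p = 0.141 with edgeR). These genes also answer to other signals, such as interferon for Cxcl10.

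The members and the family, target and immune cell lists were highest in DKD replicates 2 and 3. The mean log2 level of the 10 members, set against the control mean, was 0.14, 0.88 and 0.93 in DKD replicates 1 to 3, while the controls ran from -0.25 to 0.26. The corresponding levels of all genes tested were 0.10, 0.21 and 0.21. For TNF-induced genes the levels in DKD replicates 1 to 3 were -0.07, 1.24 and 1.35. Immune cell markers followed the same libraries, and on this log2 scale DKD replicate 1 was below the control mean for each immune list. Macrophage markers were at -0.34, 1.36 and 1.67, and T and NK cell markers at -0.23, 1.75 and 2.07. B and plasma cell markers were at -1.17, 2.12 and 1.70. Endothelial markers, which are not immune, were at 0.03, 0.24 and 0.42. The sums were also highest in DKD replicates 2 and 3. Summed T and NK cell markers, all 8 fitted higher, were at 3.74 to 4.44 CPM in control and at 4.82, 13.4 and 16.97 CPM in DKD. By this sum DKD replicate 1 lay above every control, unlike its mean log2 level. Summed B and plasma cell markers, all 6 fitted higher, were at 8.79 to 18.7 CPM in control and at 3.13, 65.4 and 65.2 CPM in DKD. Neutrophil markers were low, summing to 1.48 to 1.94 CPM in control and to 1.30 to 3.88 CPM in DKD, with Ly6g at 0 in 5 of the 6 libraries. Stromal markers differed from this pattern in that DKD replicate 1 was high too (0.69, 0.79 and 1.32). The part of these cell types in the levels of the TNF genes was not tested.

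**Figure D5:**
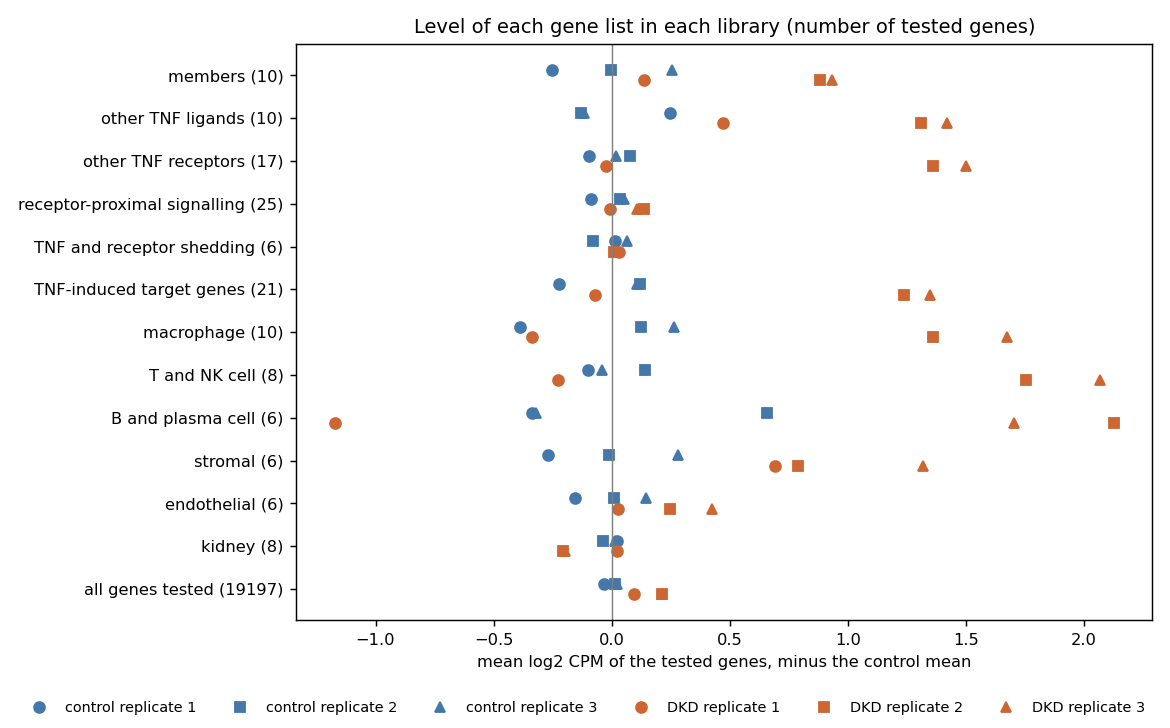
Mean log2 CPM of the tested genes of each list in each library, minus the control mean (horizontal axis), with the number of tested genes in brackets; "members" are the 10 TNF ligands and receptors described here. DKD replicates 2 and 3 lie at 0.88 and 0.93 for the members and farther right for the other ligands, other receptors, TNF-induced genes and macrophage, T and NK cell, and B and plasma cell markers, while DKD replicate 1 lies at 0.14 for the members, to the right of the controls for stromal markers and the other ligands, and far to their left for B and plasma cell markers (-1.17).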

How the data were processed

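The authors deposited 1 table of raw read counts per Ensembl gene ID for the 6 libraries, with no normalisation. Per the submitters' processing notes, the build was GRCm39 and the tools included HISAT2, StringTie, fastp and edgeR; their versions and roles, the annotation and the strand setting are not stated there. A deposited count of 4 occurs 6121 times against 3049 for 3 and 1908 for 5, so a count need not be 1 read. Symbols came from a GRCm38 table (55141 of 55401 IDs matched); exon lengths came from GENCODE M21 and promoters from RefSeq GRCm38.p6.

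Counts were tested in R 4.3.3 with edgeR 4.0.16 (robust quasi-likelihood test, two-sided, TMM factors, default low-count filter, Benjamini-Hochberg over 19197 genes, threshold 0.05). SEs come from the same statistic. Alternatives were DESeq2 1.42.0, limma 3.58.1 (voom, with and without quality weights), 3 other scalings, 2 other filters, a fit that was not robust, a replicate block and leaving out each library. The edgeR, DESeq2 and limma-voom fits were run on simulated counts in which no library was made to stand apart. That check cannot speak to the effect of DKD replicate 1. The 10 members, 5 pathway lists and 8 marker lists were chosen with earlier results of these data known. Named genes are all members and up to 3 tested genes of each other list with the smallest p, of which examples are printed; 1 listed kidney marker is not reported here and was left out of its list.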

Additional observations from a re-analysis of the deposited data

How the results depend on the processing

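The number of genes called was 0 with edgeR on all libraries, and also with RLE or upper quartile factors, library size alone, a filter of CPM 1 in 3 libraries, a fit that was not robust and limma-voom without weights. It was 1581 with DESeq2, 3942 with weighted limma-voom and 4 without the low-count filter. Leaving out 1 library gave 0 to 3101 genes: 3101 without DKD replicate 1, 7 without control replicate 1 and 1 without DKD replicate 3. Members called were 1 with DESeq2, 3 with weighted limma-voom and 0 to 3 on leaving out 1 library; genes of the pathway lists called were 9, 24 and 0 to 27. Both upper ends came without DKD replicate 1. Of those 27, 2 (Cd40lg and Tnfrsf9) had 0 counts in every control and were not tested with all libraries under the main filter. With the replicate block edgeR called 0 genes, and the log2 difference of Tnfrsf11b was 0. The labels do not say whether the numbers pair the libraries. Deviations of same-numbered libraries correlated by 0.023 to 0.034 across genes. Those of a control and a DKD library with different numbers correlated by -0.03 to 0.001. With 3 libraries per group these values cannot show whether the numbers mark a pairing.

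Of 158 values for single members, 142 kept their sign and their side of the threshold, 7 passed it and 9 turned sign. The turns were all in Tnfrsf11b (0.06 with library size alone, 0 with the block, -0.42 to 0.13 on leaving out 1 library) and Tnfsf10 (-0.06 to 0.15 on leaving out 1 library). The cause was not tested. Library size alone moved the median of all genes from 0.02 to 0.17. The fitted value for Tnf ran from 0.99 to 7.68, the latter without control replicate 3, when every control is at 0, so it is no bound. Tnf and Tnfrsf11b had no value under the filter of CPM 1 in 3 libraries. Low counts limit Tnf and Tnfrsf11b, both under 1 CPM in every library.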
